A study of Mus musculus with 8 samples.

Results

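The genes described here are 10 markers of macrophages in tibialis anterior (TA) muscle, taken by gene symbol from the 12551 genes counted. They are the surface and lysosomal markers *Adgre1*, *Itgam* and *Cd68*, the growth factor receptor *Csf1r*, the chemokine receptors *Cx3cr1* and *Ccr2*, the mannose receptor *Mrc1*, and *C1qa*, *C1qb* and *C1qc*, which encode the chains of complement C1q. All 10 were counted in every library and all 10 passed the filter on low counts. RNA sequencing was performed on 8 samples of TA muscle from male mice at 7 weeks of age, 4 wild-type (Klotho wt/wt, WT) and 4 homozygous for a null Klotho allele (Klotho null/null, KL-/-). The mice came from breeding of heterozygotes on a mixed background, the null allele is inherited and not limited to muscle, and no treatment is named for either group. Of the 8 libraries, 7 share a batch date in their labels and KL-/- replicate 3 alone has a different one, so that the batch and that sample cannot be told apart.

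Macrophages reside between the fibers of healthy muscle, depend on signals through the CSF1 receptor, and clear debris and dying cells. Monocytes that enter from the blood follow chemokines through CCR2 and, once in tissue, many macrophages carry CX3CR1. C1q is assembled from equal numbers of A, B and C chains, begins the classical complement pathway, and in most tissues is made mainly by macrophages.

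Of the 10 genes, 4 were lower in KL-/- muscle, *Cx3cr1*, *Adgre1*, *Ccr2* and *Itgam*, at 2.23 to 3.73 times below WT, and none was higher. *Csf1r* and the C1q genes lay 1.84 to 2.04 times lower on average without passing the threshold, *Cd68* differed less, and the fitted difference of *Mrc1* was the smallest and the only positive one. By edgeR's quasi-likelihood test over all 12551 genes with Benjamini-Hochberg adjustment (FDR), 4 of 10 were lower at an FDR under 0.05 and 0 were higher, where 6.44% of all genes were lower and 7.23% higher. At an unadjusted p under 0.05, 8 were lower and 0 higher, against 16.1% and 15.8% of all genes, and DESeq2 called 8 lower and 0 higher, against 9.11% and 10.5% of all genes. The median log2 fold change (KL-/- over WT) of the 10 genes was −0.97, against −0.016 over all genes tested. *Adgre1*, *Itgam*, *Cx3cr1* and *Ccr2* were named by the study as lower on these same samples, so that their direction is not independent evidence. The count of genes called lower rested on single libraries. It was 0 without KL-/- replicate 3 or 4, 1 without WT replicate 2 or 3 and 2 without WT replicate 1. It was 3 without WT replicate 4, 5 without KL-/- replicate 1 and 4 without KL-/- replicate 2. Calls over all 12551 genes changed too, with 808 lower in the fit of all 8 libraries. Without KL-/- replicate 3 or 4 there were 357 and 350, and without WT replicate 1, 2 or 3 there were 522, 372 and 346. Without WT replicate 4, KL-/- replicate 1 or KL-/- replicate 2 there were 656, 534 and 1243.

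Counts on genes summed to between 20860262 and 29273758 per library. All values are CPM, the counts scaled to a common library size after TMM normalization, with the mean ± SD over 4 samples, and 3 counts corresponded to 0.105 to 0.143 CPM. Klotho itself was not analysed here, so for these libraries the genotypes rest on the labels. The study genotyped its mice by PCR and reports that Klotho protein and mRNA were not detectable in KL-/- muscle. The 5 muscle fiber markers summed to 95807 to 154429 CPM per library, and the 10 macrophage genes summed to 42.7 to 98.7 CPM in WT against 29.3 to 59.3 CPM in KL-/- muscle. In RNA from whole muscle, fewer macrophages and less of a transcript per macrophage cannot be told apart.

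**Figure D1:**
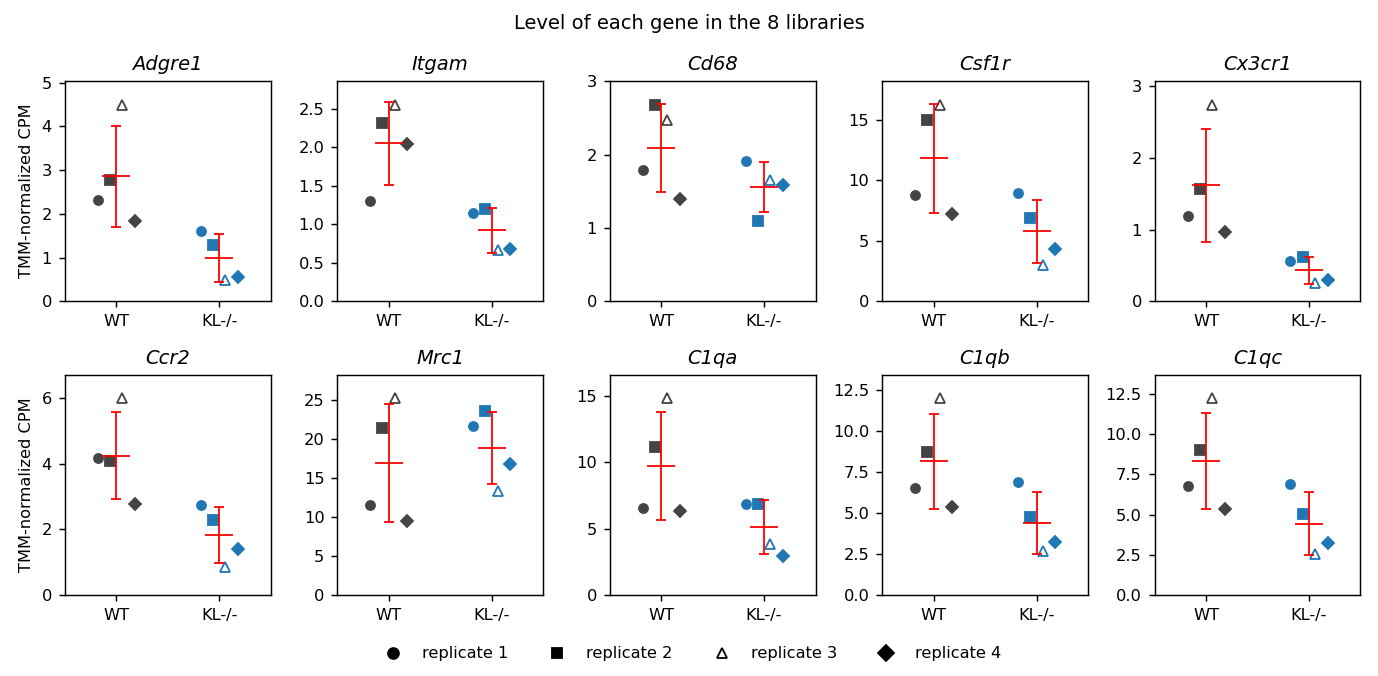
TMM-normalized CPM (linear axes from 0) of each of the 10 genes in the 4 WT (grey) and 4 KL-/- (blue) libraries. Red bars give the mean and SD, with a symbol for each replicate number, which is not stated to pair samples. The genotypes separate in *Adgre1*, *Itgam*, *Cx3cr1* and *Ccr2*, and overlap in the other 6 genes.

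The sequence upstream of some of these genes is shown because the C1q genes had nearly equal fold changes and *Mrc1* another one. Whether the sequence bears on the fold changes, and whether any factor binds it, was not tested. RefSeq promoters (GRCm38.p6, which is mm10, 250 bases before to 50 after the start, gene strand, 5′ to 3′) were analysed here for 7 of the 10 genes. The remaining genes were left out of this search, so that their promoters were not tested for the letters below. Of the 7, 4 are printed: both C1q genes among them, the gene with the largest fold change, and *Mrc1*. Capitals mark GAGGAA, the core letters of sites bound by the myeloid factor PU.1, or TTCCTC, the same letters on the other strand.
C1qb promoter, chr4:136886151-136886450 (- strand): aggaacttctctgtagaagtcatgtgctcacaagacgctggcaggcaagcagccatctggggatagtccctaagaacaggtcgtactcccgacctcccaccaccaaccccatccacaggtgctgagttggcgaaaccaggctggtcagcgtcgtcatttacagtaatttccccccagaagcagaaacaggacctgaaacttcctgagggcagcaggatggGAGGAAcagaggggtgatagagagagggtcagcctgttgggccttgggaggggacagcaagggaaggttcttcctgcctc
C1qc promoter, chr4:136892865-136893164 (- strand): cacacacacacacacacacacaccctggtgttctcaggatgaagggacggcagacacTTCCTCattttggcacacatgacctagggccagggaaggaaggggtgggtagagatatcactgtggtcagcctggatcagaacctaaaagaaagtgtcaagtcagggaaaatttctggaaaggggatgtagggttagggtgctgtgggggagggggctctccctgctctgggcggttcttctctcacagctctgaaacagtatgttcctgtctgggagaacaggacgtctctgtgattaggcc
Cx3cr1 promoter, chr9:120068247-120068546 (- strand): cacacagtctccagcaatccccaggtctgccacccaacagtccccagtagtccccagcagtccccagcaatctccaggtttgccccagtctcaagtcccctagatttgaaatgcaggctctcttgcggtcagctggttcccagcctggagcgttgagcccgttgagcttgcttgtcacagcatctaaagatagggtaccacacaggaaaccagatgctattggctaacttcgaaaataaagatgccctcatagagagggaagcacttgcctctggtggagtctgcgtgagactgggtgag
Mrc1 promoter, chr2:14229164-14229463 (+ strand): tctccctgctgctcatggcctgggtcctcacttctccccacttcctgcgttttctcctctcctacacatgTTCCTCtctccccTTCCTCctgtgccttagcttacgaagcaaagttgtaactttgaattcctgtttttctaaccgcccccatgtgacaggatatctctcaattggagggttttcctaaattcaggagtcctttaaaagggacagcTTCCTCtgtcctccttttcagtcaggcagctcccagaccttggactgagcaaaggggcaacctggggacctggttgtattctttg
These letters occurred in 5 of the 7 promoters and in 28.3% of all 32851 promoters of this length in the table. *C1qb* and *C1qc* held 1 match each, 30 and 193 bases before the start. *Mrc1* and *Itgam* held 3 matches and *Cd68* held 2, and 4.8% of all promoters held 2 or more. *Cx3cr1* and *Ccr2* held 0 in this window.

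Levels of different genes were compared per kilobase of counted exon. In WT muscle the order of mean level was *C1qa* (8.97 CPM per kilobase), *C1qc* (7.90), *C1qb* (7.66), *Mrc1* (3.18), *Csf1r* (3.05), *Cd68* (1.68), *Ccr2* (1.18), *Adgre1* (0.881), *Itgam* (0.439) and *Cx3cr1* (0.431). The lowest WT level of *C1qb* lay above the highest of *Mrc1*, and the lowest of *Adgre1* above the highest of *Itgam*. The other neighbors in this order had overlapping ranges, and *Mrc1* lay above *Csf1r*, and *Itgam* above *Cx3cr1*, in only 2 of the 4 WT libraries. The same order of means held in KL-/- muscle, but there the gaps fell in other places. *Mrc1* (3.54 CPM per kilobase) came close to *C1qb* (4.14), with overlapping ranges, and all 4 KL-/- libraries had *Mrc1* above the highest level of *Csf1r* (mean 1.49). *Cd68* and *Ccr2* were also apart there.

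*Cx3cr1* (chromosome 9, 120048683 to 120068296 of mm10), which encodes the receptor for fractalkine, had the largest difference. WT libraries held 1.18, 1.57, 2.75 and 0.968 CPM and KL-/- libraries 0.558, 0.620, 0.249 and 0.302 CPM for replicates 1 to 4. Every KL-/- library lay below every WT library. Its mean was 1.62 ± 0.792 CPM in WT against 0.432 ± 0.184 CPM in KL-/- muscle, and the log2 fold change of −1.90 ± 0.42 (SE) had a quasi-likelihood FDR of 0.0200 in edgeR. These levels rest on 27 to 72 counts per WT library and 6 to 16 per KL-/- library, so that the size of the change is imprecise. The test was still passed in 6 of the 8 fits that left out 1 library, and not without KL-/- replicate 3 (FDR = 0.0551) or KL-/- replicate 4 (FDR = 0.0611).

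*Ccr2* (chromosome 9, 124102183 to 124109140), the receptor by which inflammatory monocytes follow the chemokine CCL2, was at 4.16, 4.07, 5.99 and 2.76 CPM in WT and at 2.75, 2.29, 0.870 and 1.39 CPM in KL-/- muscle. The genotypes did not overlap, but WT replicate 4 and KL-/- replicate 1 were at nearly the same level. Its log2 fold change of −1.21 ± 0.35 (SE) had a quasi-likelihood FDR of 0.0476 in edgeR, the closest to the threshold among the 4 genes past it. It was passed in 3 of the 8 fits that left out 1 library, with log2 fold changes from −1.49 to −0.98.

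*Adgre1* (chromosome 17, 57358686 to 57483529) encodes F4/80, the surface protein used to identify mouse macrophages. It was at 2.33, 2.78, 4.50 and 1.83 CPM in WT and at 1.60, 1.29, 0.497 and 0.565 CPM in KL-/- muscle. All KL-/- libraries lay below all WT libraries, with WT replicate 3 far above the rest. The fitted log2 fold change of −1.52 ± 0.41 (SE) had a quasi-likelihood FDR of 0.0391 in edgeR and ranged from −1.88 to −1.21 with 1 library left out, with 3 of 8 fits past the threshold.

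*Itgam* (chromosome 7, 128062640 to 128118491) encodes CD11b, the integrin chain by which myeloid cells adhere and bind complement fragments. WT libraries held 1.31, 2.31, 2.55 and 2.04 CPM and KL-/- libraries 1.15, 1.19, 0.663 and 0.678 CPM, without overlap and with WT replicate 1 close to KL-/- replicates 1 and 2. The fitted log2 fold change of −1.16 ± 0.29 (SE) had a quasi-likelihood FDR of 0.0295 in edgeR, and 3 of 8 fits with 1 library left out passed. Its counts are uncertain, because 73.7% of its counted exon bases are shared with *Gm49368*, which GENCODE M21 places on that strand too. Genotypes did not overlap in any of these 4 genes, and 9.47% of all genes had all KL-/- libraries below all WT libraries. In 0 of the 10 genes did all KL-/- libraries lie above all WT libraries, as 10.2% of all genes did.

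*Csf1r* (chromosome 18, 61105572 to 61131139), the receptor for CSF1 and IL-34 that keeps macrophages alive, was at 8.82, 15.0, 16.3 and 7.21 CPM in WT and at 8.93, 6.87, 3.03 and 4.30 CPM in KL-/- muscle. WT replicates 2 and 3 stood well above the others, and KL-/- replicate 1 lay within the WT range. The log2 fold change of −1.03 (95% interval −1.82 to −0.23) had an FDR of 0.0819 by edgeR's quasi-likelihood test. DESeq2 (FDR = 0.0203) and edgeR's likelihood ratio test (FDR = 0.0339) called it lower, and over all other settings the FDR ranged from 0.0203 to 0.206.

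*Cd68* (chromosome 11, 69664213 to 69666170), a glycoprotein of the macrophage lysosome, was at 1.80, 2.68, 2.48 and 1.40 CPM in WT and at 1.92, 1.10, 1.66 and 1.58 CPM in KL-/- muscle. The genotypes overlapped. Its log2 fold change of −0.40 had a 95% interval of −0.97 to 0.17 (quasi-likelihood FDR of 0.304 in edgeR), which includes no change and also a fall nearly as large as that fitted for *Csf1r*.

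The genes for the C1q chains lie side by side within 18.7 kilobases of the minus strand of chromosome 4, *C1qb* at 136880145 to 136886177, *C1qc* at 136889802 to 136892914 and *C1qa* at 136895916 to 136898844. *C1qa* was at 6.57, 11.1, 14.8 and 6.31 CPM in WT and at 6.87, 6.82, 3.85 and 2.98 CPM in KL-/- muscle. *C1qb* was at 6.53, 8.70, 12.0 and 5.34 CPM in WT and at 6.90, 4.77, 2.69 and 3.20 CPM in KL-/- muscle. *C1qc* was at 6.78, 8.97, 12.2 and 5.34 CPM in WT and at 6.90, 5.06, 2.53 and 3.24 CPM in KL-/- muscle. In all 3 genes WT replicates 2 and 3 stood highest, and KL-/- replicate 1 was at the level of WT replicates 1 and 4, so that the genotypes overlapped. The log2 fold changes were −0.92 for *C1qa*, −0.88 for *C1qb* and −0.90 for *C1qc*, with standard errors of 0.33 to 0.34 and an FDR of 0.0982 to 0.101 by edgeR's quasi-likelihood test. None passed, although the unadjusted p was under 0.05 for all 3, and DESeq2 called all 3 lower at an FDR of 0.0369 to 0.0377. The 95% intervals ran from −1.69 to −0.15, from −1.61 to −0.15 and from −1.66 to −0.15. Without KL-/- replicate 1, *C1qb* alone passed (log2 fold change −1.19, FDR = 0.0465).

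The mean share of each chain in the sum differed little between genotypes, but the shares varied more among the KL-/- libraries. Summed C1q was at 19.9, 28.8, 39.0 and 17.0 CPM in WT and at 20.7, 16.7, 9.08 and 9.42 CPM in KL-/- muscle. *C1qa* made up 36.7% ± 2.51 of this sum in WT and 37.1% ± 5.45 in KL-/- muscle, *C1qb* 31.3% ± 1.16 and 31.4% ± 2.66, and *C1qc* 32.0% ± 1.40 and 31.5% ± 2.97 (SD, n = 4). The difference in each mean share was smaller than its spread between samples. Among the KL-/- libraries the share of *C1qa* ran from 31.6% in replicate 4, where it was the lowest of the chains, to 42.5% in replicate 3, where that of *C1qc* was 27.9%. The nearest tested genes on either side had smaller differences that did not pass edgeR's quasi-likelihood test, *Ephb2* with a log2 fold change of −0.38 (FDR = 0.554) at 44.1 kilobases and *Zbtb40* with −0.36 (FDR = 0.0555) at 80.9 kilobases.

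*Mrc1* (chromosome 2, 14229414 to 14332023) encodes the mannose receptor CD206, carried by resident macrophages and also by some endothelial cells. It was at 11.6, 21.4, 25.2 and 9.47 CPM in WT and at 21.7, 23.5, 13.3 and 16.8 CPM in KL-/- muscle. The KL-/- libraries lay inside the WT range. The log2 fold change was 0.16 (95% interval −0.53 to 0.84, with a quasi-likelihood FDR of 0.757 in edgeR), and it turned to −0.043 without WT replicate 4. A fall of the size fitted for the C1q genes lies outside this interval.

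Set against the other genes in the same library, *Mrc1* stood higher in KL-/- muscle. The ratio of *Mrc1* to summed C1q was 0.581, 0.743, 0.646 and 0.557 in WT and 1.05, 1.41, 1.47 and 1.78 in KL-/- muscle. The ratio of *Mrc1* to *Csf1r* was 1.31 to 1.55 in WT and 2.43 to 4.40 in KL-/- muscle. Neither ratio overlapped between genotypes, although the WT libraries differed up to 2.66 times in *Mrc1* itself. For all 45 pairs of the 10 genes, the difference of their log2 CPM (prior count of 2) was tested for a change with genotype in 70 relabelings of the samples (exact permutation, two-sided), a family chosen after the values had been seen. The genotypes did not overlap in 16 pairs, each at p = 0.0286, the smallest this exact test can give with 4 against 4. After Benjamini-Hochberg adjustment over the 45 pairs these had p = 0.0804 by the exact test, so that 0 passed. The share of such pairs among other genes was not taken, and pairs that share a gene are not independent. Of the 16, 8 were pairs of *Mrc1* with another gene, *Cd68* being the exception among its 9 pairs. *Cx3cr1* was in 6 of the 16, being lower in KL-/- muscle relative to *Mrc1*, *Cd68*, *Csf1r* and the C1q genes. None of the 16 was a pair of C1q genes.

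**Figure D2:**
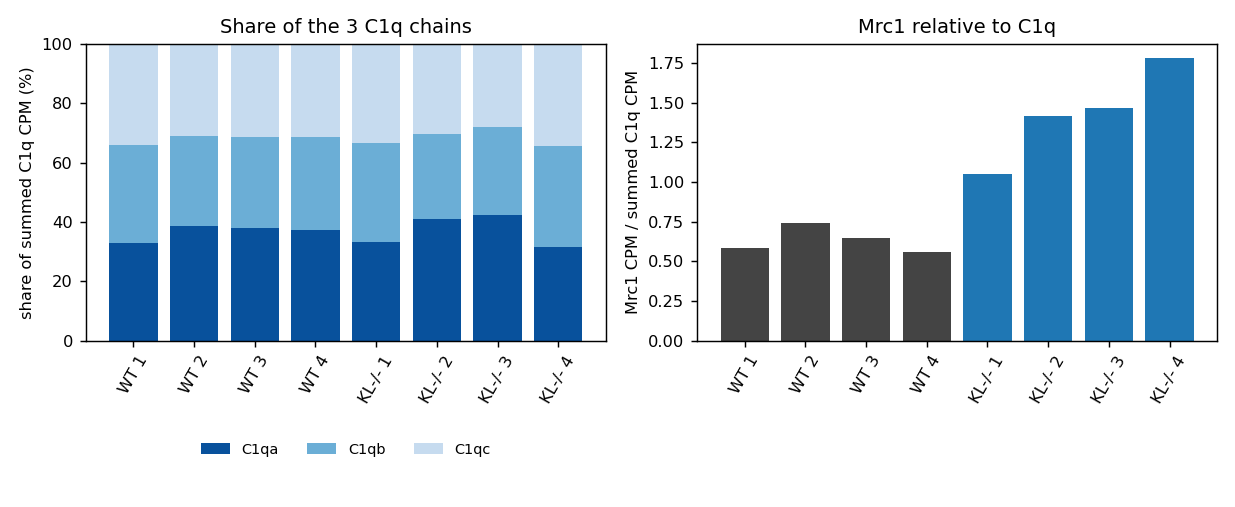
Left, the share (%) of *C1qa*, *C1qb* and *C1qc* in their summed CPM in each of the 8 libraries. Right, *Mrc1* CPM divided by summed C1q CPM in the same libraries (WT grey, KL-/- blue). The shares of *C1qa* span 33.1 to 38.7% in WT against 31.6 to 42.5% in KL-/- muscle, and the ratio lies at 0.557 to 0.743 in WT and at 1.05 to 1.78 in KL-/- muscle.

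**Figure D3:**
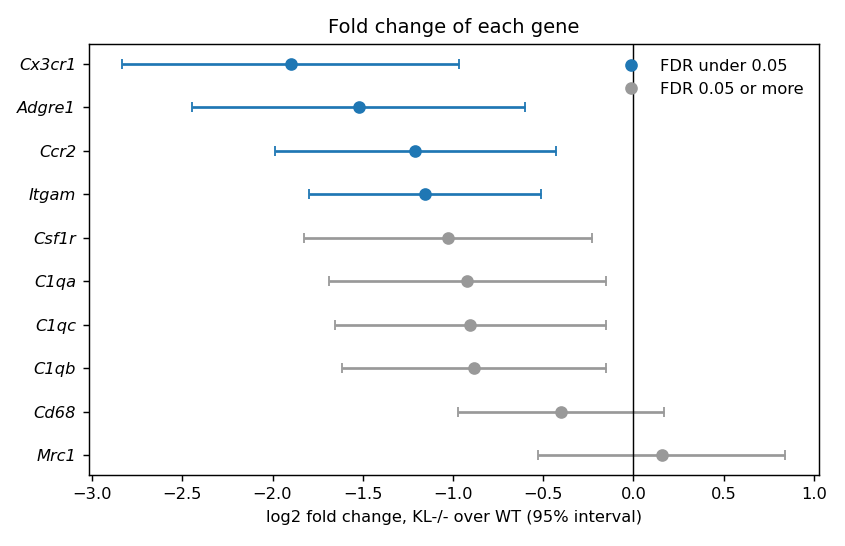
Log2 fold change (KL-/- over WT) of the 10 genes with 95% intervals from edgeR's quasi-likelihood fit, blue where the FDR was under 0.05. The fold changes run from −1.90 for *Cx3cr1* to 0.16 for *Mrc1*.

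The genes varied together within each genotype. WT replicate 3 was the highest WT library for 9 of the 10 genes and WT replicate 4 the lowest for 9. KL-/- replicate 1 was the highest KL-/- library for 7 genes and KL-/- replicate 3, whose batch date differs, the lowest for 8. Within a genotype, the highest library held 1.75 to 3.23 times the level of the lowest. Over these 10 genes the mean log2 CPM, centred on each gene's mean, was 0.18, 0.70, 1.06 and −0.036 in WT and 0.073, −0.16, −1.01 and −0.81 in KL-/- muscle, so that KL-/- replicate 1 stood above WT replicate 4.

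**Figure D4:**
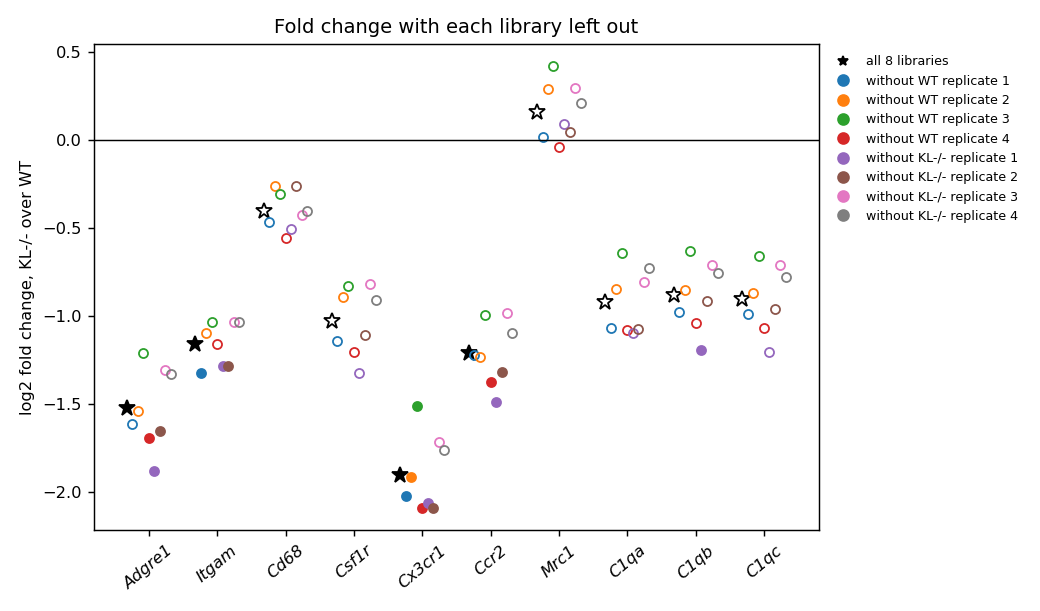
Log2 fold change (KL-/- over WT) of each of the 10 genes with all 8 libraries (stars) and with each library left out in turn (circles), filled where the FDR was under 0.05. *Mrc1* runs from −0.043 to 0.42, and all values of the other 9 genes are negative.

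The other genes of the pathway were taken from a list of 43, of which 28 were among the genes tested. 25 of these 28 had a negative log2 fold change, with a median of −0.66, but only 1 was lower and 0 were higher at an FDR under 0.05 by edgeR's quasi-likelihood test. The share lower, 3.57%, was below the 6.44% of all genes. At an unadjusted p under 0.05, 16 of the 28 were lower and 1 was higher, where 16.1% and 15.8% of all genes were. DESeq2 called 9 lower and 0 higher, where it called 9.11% and 10.5% of all genes. In 4 of the 28 every KL-/- library lay below every WT library, namely *Cx3cl1*, *Fcgr3*, *Lyz2* and *Clec10a*, a share of 14.3% against 9.47% of all genes, named after their values had been seen. None of the 5 monocyte genes on the list, *Ly6c2* among them, was analysed here.

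Among ligands of the receptors, *Cx3cl1*, which encodes fractalkine, also fell, with 4.22 ± 1.53 CPM in WT against 2.02 ± 0.272 CPM in KL-/- muscle (log2 fold change −1.06 ± 0.25 SE, quasi-likelihood FDR of 0.0266 in edgeR). Of the CSF1R ligands, *Csf1* was at 14.5 ± 3.02 CPM in WT against 9.64 ± 3.38 CPM in KL-/- muscle (FDR = 0.130) and *Il34* at 4.42 ± 1.21 and 4.88 ± 0.867 CPM (FDR = 0.681). The CCR2 ligands *Ccl2*, *Ccl7*, *Ccl8* and *Ccl12* were not analysed here. Partner proteins had 4 of 4 negative fold changes and 0 of 4 past the threshold, with 4 lower at an unadjusted p under 0.05 and 4 by DESeq2. *Itgb2*, the partner chain of CD11b, had a log2 fold change of −0.86 (FDR = 0.0565), and *C1ra* and *C1s1*, the proteases that C1q activates, had −0.75 and −0.61. *Serping1*, which encodes the inhibitor of these proteases, had −0.63 (FDR = 0.0692).

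Of 6 myeloid transcription factors and adaptors, 0 passed, with 3 lower and 1 higher at an unadjusted p under 0.05 and 0 by DESeq2. The immunoreceptor adaptors *Tyrobp* and *Fcer1g* had log2 fold changes of −0.93 and −0.78, and *Cebpa*, a factor also used by fat cells, −0.16. Of 15 other macrophage surface and lysosomal genes, 14 had a negative fold change and 0 passed, with 7 lower and 0 higher at an unadjusted p under 0.05 and 4 lower by DESeq2. The lysozyme gene *Lyz2*, the most abundant of them per length in WT, was at 31.7 ± 9.29 CPM in WT against 19.6 ± 5.41 CPM in KL-/- muscle (log2 fold change −0.70, FDR = 0.0764). The lysosomal protease gene *Lgmn* had −0.10, the platelet factor *Pf4* −0.96 and the scavenger receptor *Stab1* −0.42.

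**Figure D5:**
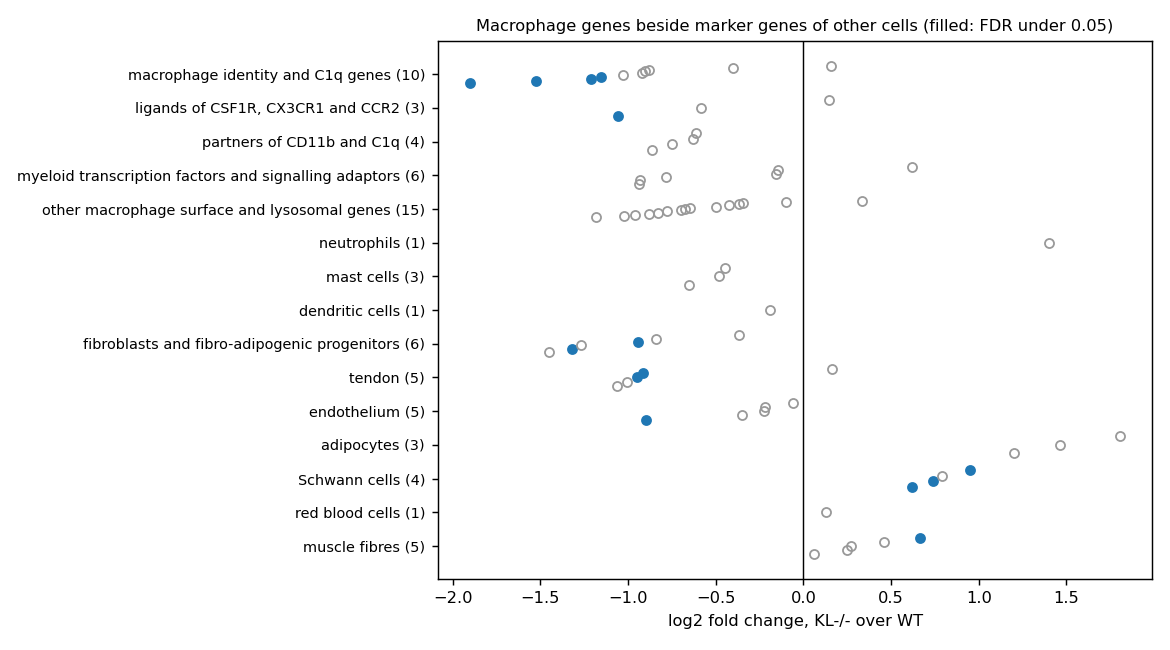
Log2 fold change (KL-/- over WT) of each tested gene in the macrophage lists and in marker lists of other cells, with the number of genes in brackets and filled points for an FDR under 0.05. Fibroblast markers lie at −1.45 to −0.37, within the range of the 10 macrophage genes, and Schwann cell markers at 0.62 to 0.95.

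Markers of fibroblasts and fibro-adipogenic progenitors were low in the same libraries as the macrophage genes. Of these markers, 6 of 6 had negative log2 fold changes, with a median of −1.11, and 2, *Dcn* and *Lum*, were lower at an FDR under 0.05. Their summed level was 1192, 2664, 2825 and 698 CPM in WT and 855, 1248, 364 and 570 CPM in KL-/- muscle, so that the WT libraries had the same order as in the macrophage genes and KL-/- replicates 3 and 4 were lowest in both. Tendon markers summed to 181 to 224 CPM in WT against 55.3 to 142 CPM in KL-/- muscle, with 2 of 5, *Fmod* and *Thbs4*, lower. Endothelial markers summed to 414 to 610 and 373 to 411 CPM, with 1 of 5, *Kdr*, lower. The part of these cells in the macrophage result was not tested. Schwann cell markers went the other way, with 3 of 4 higher, and of 5 muscle fiber markers *Actn3* was higher. None of the tested mast cell (3), dendritic cell (1), neutrophil (1), adipocyte (3) and red blood cell (1) markers passed edgeR's quasi-likelihood test, of which *S100a9* of neutrophils, at 0.122 to 0.610 CPM in WT against 0.239 to 1.41 CPM in KL-/- muscle, was the only 1 with an unadjusted p under 0.05. DESeq2 called 0 of them. The listed T cell and B cell markers were not analysed here.

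The 8 genes outside these lists whose profile over the 8 libraries was most like the mean of the 10 genes were *Ptgfrn*, *Lpar1*, *Sox4*, *Loxl1*, *Mrc2*, *Laptm5*, *Prdm8* and *Cxcl16*. Their root mean square difference from that mean profile was 0.095 to 0.13 log2 units, on centred log2 CPM, among genes whose log2 CPM averaged 0 or more. *C1qb* (0.088) and *C1qc* (0.093) were as close to this mean, of which they are part, whereas *Mrc1* (0.62) was the farthest of the 10. *Laptm5* encodes a lysosomal protein of blood-derived cells, *Cxcl16* a chemokine, *Loxl1* an enzyme that cross-links elastin, and *Mrc2* a collagen receptor related to the mannose receptor.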

How the data were processed

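RNA sequencing counts of 8 TA samples (4 WT, 4 KL-/-) were used as deposited. Per the study's methods and the processing notes, the authors prepared libraries from 100 ng of RNA and used STAR with mm10 for alignment. Alignments of low quality were dropped, and featureCounts gave the counts per gene. The deposited counts are whole numbers without normalization, for 12551 genes, all of which passed the filter used here. The annotation and the strand setting of the counting are not given in the sources used here. Groups and replicate numbers come from the sample titles.

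The analysis used edgeR 4.0.16 in R 4.3.3 (default filter on low counts, TMM factors, quasi-likelihood test on genotype, Benjamini-Hochberg adjustment over all genes, FDR under 0.05). Standard errors came from the test statistic. Intervals are at 95%. The test was checked on counts simulated with 200 changed genes. Alternatives were edgeR's likelihood ratio test, DESeq2 1.42.0, limma-voom (limma 3.58.1), RLE factors, library totals, other filters, the replicate number as a block and each library left out in turn. A level of 3 counts equals 0.105 to 0.143 CPM, depending on the library. No 2 libraries of a genotype were duplicates (chi-square per gene of 9.91 or more). The deposited columns carry a different number for each sample, but separate animals or litters are not stated in the labels. The p-values therefore set the genotype difference against the spread between these samples, which may not be that between animals or litters. The labels name total RNA libraries and the study's methods mRNA sequencing. The 10 genes and the lists were chosen with earlier results of these data known. Named beside them are up to 4 genes of each list with the highest level per length, the neighbors of the C1q genes and the 8 genes most alike in profile. A few genes that this rule would name are not reported here. Gene positions are those of the counted exons on mm10, and overlaps were read from GENCODE M21.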

Additional observations from a re-analysis of the deposited data

How the results depend on the processing

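With all 8 libraries 4 of the 10 genes were called lower and 0 higher. DESeq2 called 8 lower, edgeR's likelihood ratio test called 5, and the fit with the replicate number as a block called 0. At an unadjusted p under 0.05 the block fit had 8 lower, a count whose share over all genes was not taken. Of the 28 other pathway genes, 1 was called lower, against 8 by the likelihood ratio test, 9 by DESeq2, 9 with library totals, 0 with the replicate block and 0 without WT replicate 3, KL-/- replicate 3 or KL-/- replicate 4. Among all 12551 genes, 1715 were called, against 2584 with library totals and 629 with the block. Those called lower numbered 808, against 1099 by the likelihood ratio test, 1143 by DESeq2, 2097 with library totals and 309 with the block. With 1 library left out, the calls ranged from 0 to 5 among the 10 genes, from 0 to 4 lower and 0 to 1 higher among the pathway genes, and from 760 to 2765 among all genes. Without KL-/- replicate 3, which leaves 1 batch date, 0 of the 10 genes were lower at an FDR under 0.05, where 357 of all 12551 genes were. At an unadjusted p under 0.05, 5 of the 10 were lower in that fit, again without a share over all genes. Library totals shifted the median over all genes from −0.016 to −0.13 (log2) and the share of higher genes among those called from 52.9% to 18.8%, and still called 4 of the 10 genes lower. A minimum of 10 counts in every sample removed *Cx3cr1*, and leaving out the filter made no difference, since the default kept every gene. Among the log2 fold changes of the 10 genes under the 16 other fits, 1 reversed, *Mrc1* at −0.043 without WT replicate 4 (0.42 without WT replicate 3), 21 lost and 6 gained the call, and 131 kept both direction and call. The cause of these differences was not tested. The labels name no pairing by replicate number. Same-numbered WT and KL-/- libraries had correlations of −0.15, 0.18, −0.37 and 0.017 between their deviations from the genotype means. Of 4 WT libraries, 1 correlated best with its own number. With so few libraries these correlations cannot decide whether the numbers pair samples. Depth limits *Cx3cr1* most, with 6 to 16 counts per KL-/- library.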
